A study of Bos taurus with 3 samples.

Results

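The genes of the extracellular matrix, of the integrins that hold cells to it and of the proteases that cut it were followed in the bovine mammary gland around parturition. Members were chosen by gene symbol alone: collagens, laminin chains, nidogens, fibrillins, fibulins, the microfibril-associated MFAP genes, lysyl oxidases, small leucine-rich proteoglycans, tenascins, SPARC-type and other adhesive proteins, integrins, and the MMP, ADAMTS and TIMP families. Of the 9154 genes listed in at least 1 library, 82 matched. They were divided into 7 basement membrane genes, 6 fibrillar collagens, 8 other collagens, 11 genes of the elastic fibre and of crosslinking, and 4 proteoglycans. Further groups were 7 matricellular and adhesive proteins, 6 integrins known from leukocytes, 10 other integrins, and 17 proteases, inhibitors and related proteins. The remaining 6 fit the symbol rule and were set apart as name matches: COL4A3BP, ITGB1BP1, ITGB3BP, ITGBL1, MFAP1 and MFAP3. Whether ITGBL1 and MFAP3 belong to the matrix was not examined. They are counted among the 82 and described apart. The laminins were represented by 3 chains, LAMA4, LAMB3 and LAMC1.

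Mammary biopsies came from 18 Holstein cows of the second parity, 6 at each of 3 times. The gland was dry 35 days before calving (−35 d) and made colostrum 3 days after it (+3 d), with a further 6 cows sampled 7 days before calving (−7 d). The comparison of −7 d with −35 d addresses stage I of lactogenesis, and that of +3 d with −7 d addresses stage II. For each time the biopsies of all 6 cows were combined before RNA isolation, and 1 digital gene expression (DGE) library came from each pool. There are therefore 3 libraries and no replicates, and a difference between times cannot be told apart from a difference between the cows pooled.

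The extracellular matrix is the network of proteins and sugars outside the cell. A thin basement membrane of type IV collagen, laminin and nidogen underlies the mammary epithelium and its myoepithelial cells, while fibrillar collagens, elastic fibres and proteoglycans fill the connective tissue between the alveoli. Epithelial cells read the basement membrane through integrins, receptors of 1 alpha and 1 beta chain, and in the mammary gland this contact is known to be needed for milk protein synthesis. Matrix metalloproteinases (MMPs) and ADAMTS enzymes cut or process the matrix, and TIMPs inhibit MMPs.

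DGE counts a short tag next to a cutting site of each transcript, and the deposited unit, TPM, is the number of tags of a gene scaled to the clean tags of its library. A TPM value depends on the sites a transcript holds, so TPM values are compared below between libraries and not as amounts of different proteins. A gene was called higher or lower when the Audic-Claverie test, which compares a tag count between 2 libraries, gave a false discovery rate (FDR, Benjamini-Hochberg over all genes tested) of at most 0.001 and the TPM differed at least 2-fold. Differences are given as log2 ratios of TPM, and "rose" and "fell" are used below only of genes called in this way, with clean-tag totals unless TMM scaling is named. The test and all intervals cover counting error only, PCR copies of a tag are not independent molecules, and no spread among cows entered.

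Where 3 values follow each other without a time, they are those of −35 d, −7 d and +3 d in that order. Clean tags numbered 5914422, 5593237 and 5845821. Matrix, integrin and protease members took 83667, 58358 and 110287 of them, which is 1.41%, 1.04% and 1.89%. The 5 genes that each held over 1% of a library, all for milk proteins, grew from 0.348% to 4.13% and 22.6% of the clean tags, and TPM, as a share of all clean tags, is lower for every other gene by that share. The median log2 ratio of all genes tested was −0.21 in stage I, −0.30 in stage II and −0.54 for +3 d against −35 d. TMM scaling, which takes most genes as unchanged, adds 0.19, 0.31 and 0.50 to the log2 ratios of these comparisons, and values after TMM scaling are given beside those from clean tags. Leaving out the 5 genes, members held 1.42%, 1.09% and 2.44%. Of the 82 members, 78, 75 and 76 had tags in the 3 libraries in order of time, and 69 had tags in all 3 libraries. A gene with no tags is given as 0, which allows up to 3 tags, or 0.507, 0.536 and 0.513 TPM in the 3 libraries.

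Most matrix and protease genes had their low point at −7 d. Of the 66 members with over 3 tags in every library, 47 (71.2%) had their lowest TPM at −7 d, against 25.7% of the 7328 such genes overall. After TMM scaling 48 (72.7%) did, against 31.8% overall. The highest TPM was at +3 d for 33 members (50%, against 15.8% of genes) and at −35 d for 31 (47%, against 53.5%), while after TMM scaling +3 d was highest for 53 (80.3%, against 35%). The dip at −7 d was present in most groups, at 5 of 6 basement membrane genes, 8 of 11 elastic fibre genes, 5 of 7 matricellular genes and 10 of 12 proteases and inhibitors counted in this way, but at 1 of 4 leukocyte integrins, 3 of which were lowest at +3 d (2 and 2 after TMM scaling).

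In stage I 20 of 82 members fell (24.4%), against 6.45% of all genes called lower, and no member rose, against 2.62% called higher. At an unadjusted p under 0.05, 48 members were lower and 4 higher. Of all 8967 genes tested, 4189 passed in either direction. Their directions were not counted, so the split of the members by direction has no background beside it. After TMM scaling 17 fell (background 3.9%) and 1, COL8A1, rose (background 4.22%). In stage II 25 of 79 members tested rose (31.6%), against 3.12% of all genes called higher, and none fell, against 10.4% called lower. At an unadjusted p under 0.05, 46 were higher and 2 lower. Of all 8784 genes tested, 4350 passed in either direction, again with directions not counted. After TMM scaling 34 rose (background 5.87%) and none fell (background 4.9%). The median log2 ratio of the members was −0.81 in stage I and 0.76 in stage II, and −0.62 and 1.06 after TMM scaling. Both stages share the −7 d library, so a low count there lowers the first ratio and raises the second, and the stages are not independent.

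How many calls remain depends on how much pools of cows vary, which these libraries cannot show. When edgeR's exact test was given a coefficient of variation between pools of 0.2, which is an assumption, MFAP4 and TNXB were called lower in stage I (background 0.301%) and no member was higher (background 0.301%). In stage II COL8A1, LOX, MFAP4, MGP and TNXB were called higher (background 0.74%) and none lower (background 1.08%). With an assumed coefficient of 0.4 no member was called in any comparison.

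**Figure D1:**
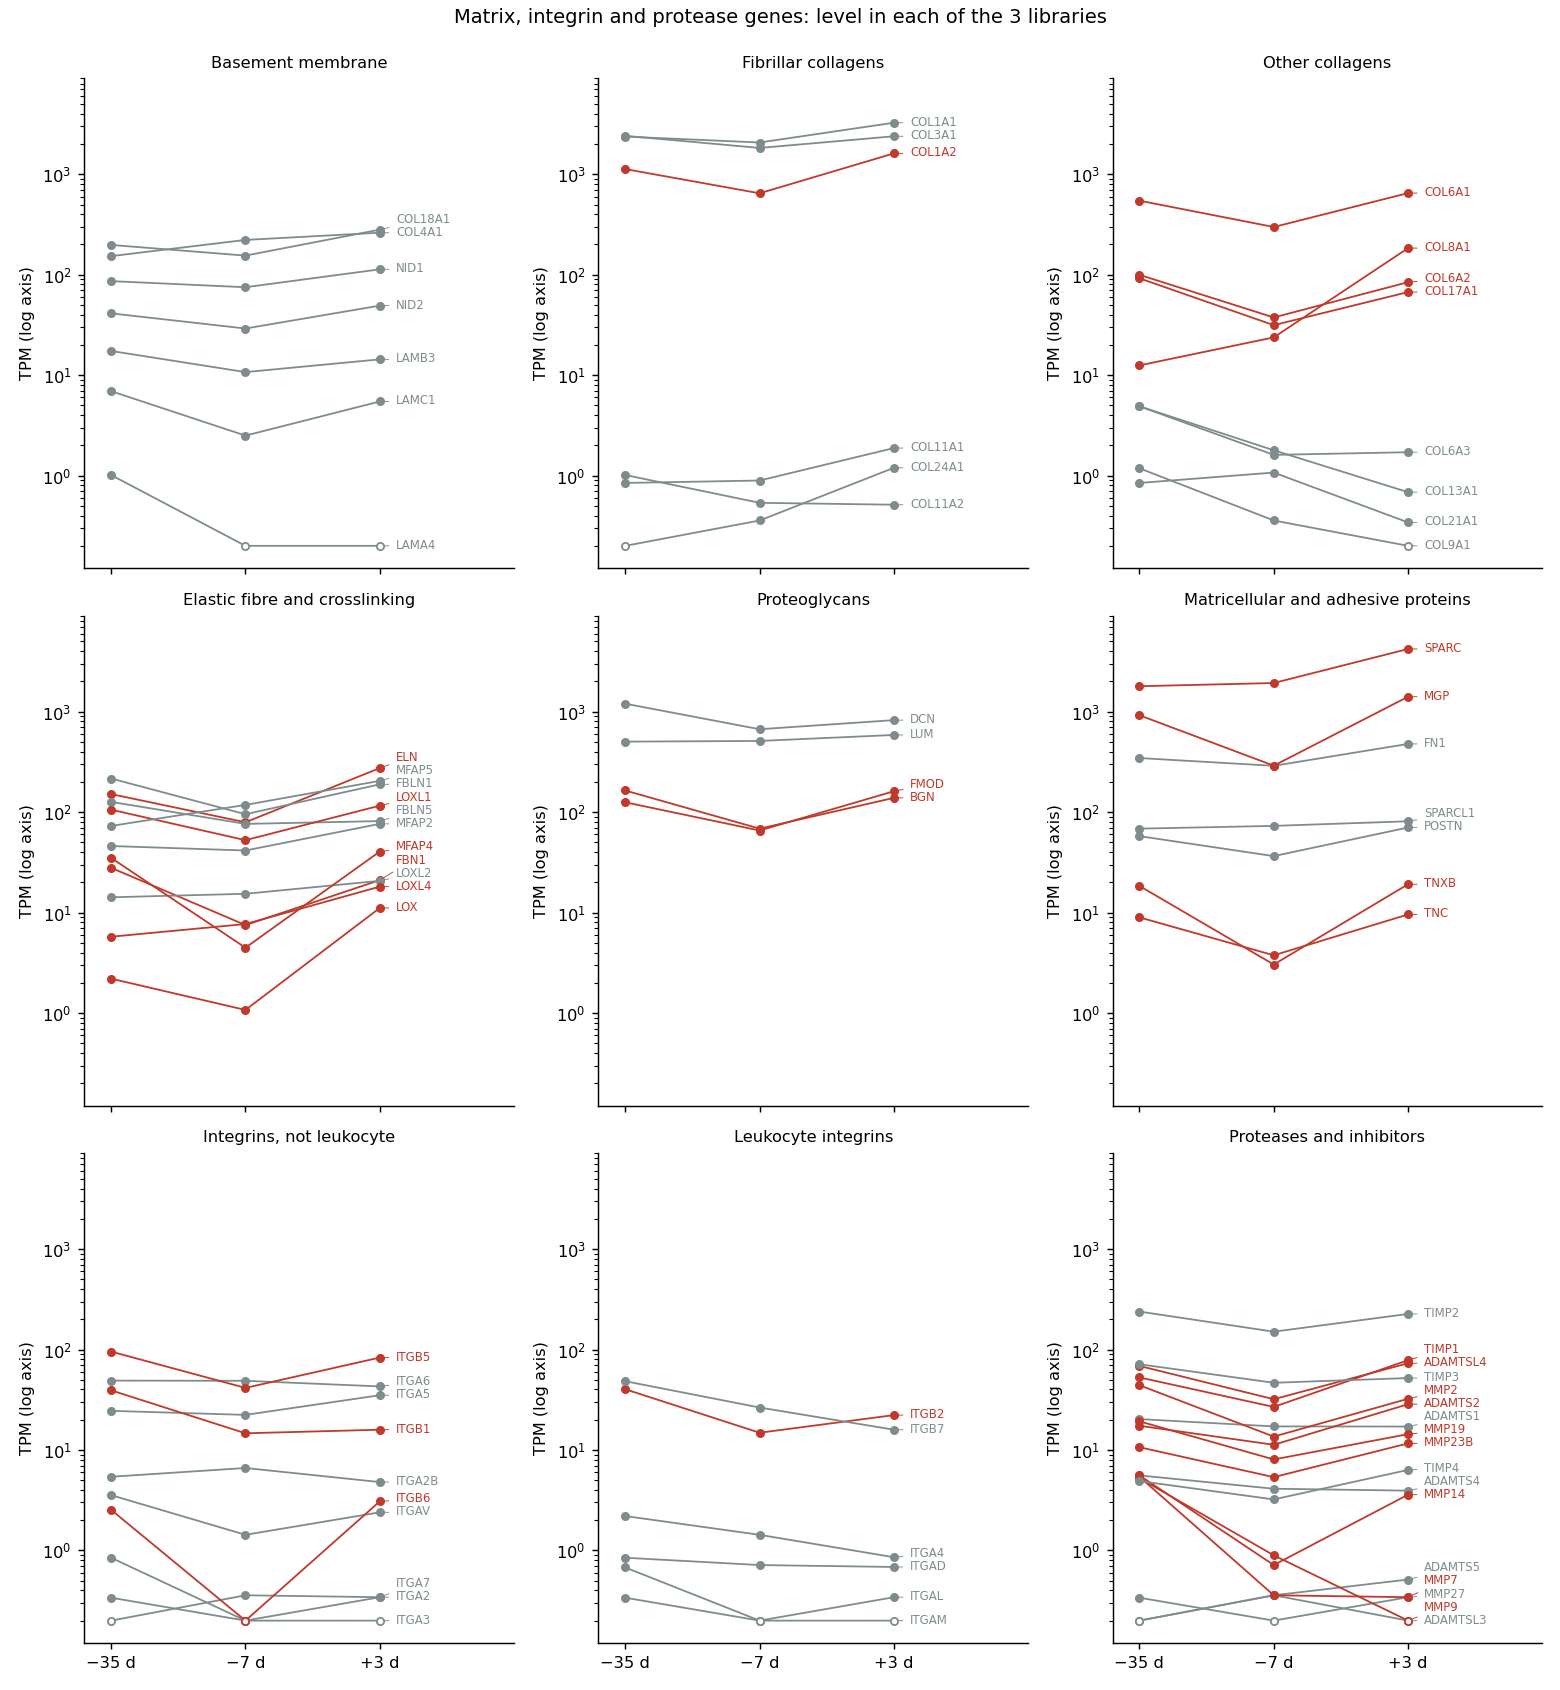
Level of the 76 members that code for matrix proteins, integrins, proteases or related proteins, in TPM on a log axis, in the libraries of −35 d, −7 d and +3 d, with 1 panel per group and 1 line per gene. Red lines are genes called in stage I or stage II with clean-tag totals and with TMM scaling, grey lines are the others, and open circles at the bottom stand for 0 tags. Most lines dip at −7 d, COL8A1 climbs from 12.5 to 184 TPM, and MMP7 and MMP9 end at or near 0.

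Fibrillar collagens, which form the tensile fibres of connective tissue, had a higher TPM at +3 d than at −7 d in 5 of 6 members. COL1A1, the alpha1 chain of type I collagen, had 2372, 2072 and 3262 TPM. COL1A2, the alpha2 chain of the same collagen, had 1127, 647 and 1615 TPM. COL3A1, the chain of type III collagen, had 2415, 1829 and 2390 TPM. Of the 3, only COL1A2 was called: it rose by 1.32 in log2 ratio in stage II (95% interval 1.27 to 1.38), or 1.63 after TMM scaling. With clean-tag totals COL1A1 and COL3A1 passed the FDR in both stages but differed less than 2-fold, with log2 ratios of 0.65 and 0.39 in stage II. After TMM scaling COL1A1 did not pass in stage I, at a log2 ratio of −0.005 (interval −0.04 to 0.03). COL3A1 still passed in stage I, at −0.21. COL11A1, COL11A2 and COL24A1, minor fibrillar chains, had at most 11 tags in any library, and none passed the test. The median log2 ratio of the 6 was −0.30 in stage I and 0.83 in stage II, against −0.21 and −0.30 for all genes. After TMM scaling it was −0.11 and 1.14, against −0.02 and 0.01. The stage II median rests in part on the minor chains with few tags. The medians of the members' lower and upper interval bounds were −0.11 and 2.11 in stage II with clean-tag totals.

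The chains of type I collagen did not keep their ratio. COL1A1 had 2.1, 3.2 and 2.02 tags per COL1A2 tag in the 3 libraries, and a ratio of 2 genes in a library is free of any scaling. It was 1.52-fold higher at −7 d than at −35 d (log2 change 0.61, 95% interval 0.54 to 0.68) and decreased by 0.67 in log2 (interval −0.73 to −0.60) at +3 d. COL1A1 against COL3A1 went one way instead, from 0.982 to 1.13 and 1.37 tags per COL3A1 tag. The gene pairs for such ratios were chosen after the values had been seen.

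None of the 7 basement membrane genes was called with clean-tag totals in any comparison. COL4A1, the alpha1 chain of type IV collagen, had 153, 222 and 262 TPM. With COL8A1, MFAP5 and SPARC it was 1 of the 4 members that passed the FDR as higher at −7 d than at −35 d, at a log2 ratio of 0.54 (interval 0.41 to 0.66) that is under 2-fold. COL18A1, whose C-terminal part is the angiogenesis inhibitor endostatin, had 198, 155 and 281 TPM. NID1 and NID2, the nidogens that link laminin to type IV collagen, had 86.4, 75.1 and 113 TPM and 41.3, 29.1 and 49.3 TPM. After TMM scaling COL18A1 (log2 ratio 1.17) and NID2 (1.06) rose in stage II, and COL18A1 (1.003) and COL4A1 (1.27) were called higher at +3 d than at −35 d. The nidogen ratio was 2.09, 2.58 and 2.3 NID1 tags per NID2 tag, with intervals of its log2 change that include 0 in each comparison.

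The laminin chains, which build the sheet that epithelial integrins bind, had fewer tags. LAMB3, a chain of the laminin of epithelial anchoring sites, had 17.4, 10.7 and 14.4 TPM, and LAMC1, the gamma chain of most other laminins, had 6.93, 2.5 and 5.47 TPM from 41, 14 and 32 tags. LAMA4, a chain of vascular basement membranes, had 6 tags at −35 d and none in the later libraries. No laminin passed the test, although LAMC1 had a log2 ratio of −1.47 in stage I with an interval of −2.46 to −0.56. These 3 genes lie outside the rule for named genes.

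Against type I collagen, the type IV chain gained before parturition. There were 0.0646, 0.107 and 0.0803 COL4A1 tags per COL1A1 tag. The ratio was 1.66-fold higher at −7 d than at −35 d (log2 change 0.73, interval 0.60 to 0.86) and decreased by 0.42 (interval −0.53 to −0.30) at +3 d, which left it above the −35 d value by 0.32 (interval 0.19 to 0.44).

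Among the other collagens, COL8A1 had the largest log2 ratio of +3 d to −35 d among members with over 3 tags in every library. COL8A1 codes for the alpha1 chain of type VIII collagen, a short-chain collagen known from vessel walls and sites of tissue remodelling. It had 74, 133 and 1076 tags, or 12.5, 23.8 and 184 TPM. The log2 ratio was 0.93 in stage I (interval 0.51 to 1.36) and 2.95 in stage II (interval 2.69 to 3.22), and 1.12 and 3.26 after TMM scaling, so that the stage I difference was called only after TMM scaling. From −35 d to +3 d COL8A1 rose by 3.88 in log2 ratio (interval 3.54 to 4.24). Per COL1A1 tag it increased 2.18-fold in stage I and 4.92-fold in stage II, both with intervals above 0 on the log2 scale.

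COL6A1, COL6A2 and COL17A1 had their lowest TPM at −7 d. COL6A1 and COL6A2, chains of the beaded microfibrils around cells, had 546, 299 and 650 TPM and 99.8, 37.55 and 84.3 TPM. COL6A2 fell by 1.41 in stage I, COL6A1 had a log2 ratio of −0.87, and in stage II the log2 ratios of 1.12 and 1.17 were both called. COL6A3, the third chain, had 29, 9 and 10 tags and no call. COL17A1, the transmembrane collagen of hemidesmosomes by which basal epithelial cells hold to the basement membrane, had 92.15, 31.5 and 67.2 TPM. It fell by 1.55 in stage I (interval −1.80 to −1.30) and rose by 1.10 in stage II (interval 0.84 to 1.36). Per COL4A1 tag there were 0.602, 0.142 and 0.257 COL17A1 tags, and this ratio decreased by 2.09 in log2 (interval −2.36 to −1.81) in stage I and increased by 0.86 (interval 0.58 to 1.13) in stage II. COL13A1, another transmembrane collagen, had 29, 10 and 4 tags and was called lower at +3 d than at −35 d, a call lost after TMM scaling. COL9A1 and COL21A1 had at most 7 tags.

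Of the 11 elastic fibre genes and lysyl oxidases, which crosslink elastin and collagen, 6 rose in stage II with clean-tag totals (3.12% of all genes) and 9 after TMM scaling (5.87% of all genes), at a median log2 ratio of 1.14 (1.45 after TMM scaling). ELN, elastin itself, had 151, 79.2 and 275 TPM, and rose by 1.79 in stage II (interval 1.64 to 1.95). LOX, the first of the lysyl oxidases, had 13, 6 and 65 tags, and rose by 3.37 (interval 2.17 to 4.87). LOXL1, which is known to act in elastic fibre assembly, had 106, 52.6 and 116 TPM, and LOXL4 had 5.75, 7.69 and 18.1 TPM. Both rose in stage II, by 1.14 and 1.24. LOXL1 also fell by 1.01 in stage I, a call lost after TMM scaling, while LOXL4 did not fall, with a stage I log2 ratio of 0.42 (interval −0.26 to 1.11). LOXL2, which was not named by rule, had 14.2, 15.4 and 20.7 TPM.

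The microfibril genes divided at −7 d. FBN1, fibrillin-1, which forms the microfibril on which elastin is laid down, had 27.9, 7.51 and 21 TPM, fell by 1.89 in stage I and rose by 1.49 in stage II. MFAP4, a microfibril-associated glycoprotein, had 207, 25 and 237 tags, or 35, 4.47 and 40.5 TPM. It fell by 2.97 in stage I (interval −3.63 to −2.37) and rose by 3.18 in stage II (interval 2.58 to 3.84), and at +3 d had a log2 ratio of 0.21 (interval −0.06 to 0.49) to its −35 d level, or 0.71 (interval 0.43 to 0.99) after TMM scaling. MFAP5, another microfibril glycoprotein, had 72.9, 118 and 205 TPM. Its stage I log2 ratio of 0.70 (interval 0.52 to 0.87) points the opposite way to that of MFAP4. There were 2.08, 26.4 and 5.05 MFAP5 tags per MFAP4 tag, a 12.7-fold increase and then a decrease by 2.39 in log2 (interval −2.996 to −1.78). MFAP2 had 46, 41.5 and 76.5 TPM and was called in stage II after TMM scaling only.

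The fibulins are adaptor proteins of elastic fibres and basement membranes. FBLN1 had 216, 95.3 and 189 TPM. It fell by 1.18 in stage I with clean-tag totals, and after TMM scaling the fall was just under 2-fold and the stage II rise of 1.30 was called instead. FBLN5, which is known to be needed for elastic fibre assembly, had 126.5, 76.3 and 81.4 TPM and was not called in any comparison. The ratio of elastin to fibrillin-1 was 5.42, 10.55 and 13.1 ELN tags per FBN1 tag, with a log2 change of 0.96 (interval 0.44 to 1.48) in stage I and 0.31 (interval −0.22 to 0.84) in stage II.

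Of the small leucine-rich proteoglycans, which bind collagen fibrils and set their spacing and width, BGN and FMOD rose in stage II and DCN and LUM did not. BGN, biglycan, had 164, 68.5 and 139 TPM, fell by 1.26 in stage I (interval −1.44 to −1.09) and rose by 1.02 (interval 0.84 to 1.20). FMOD, fibromodulin, had 125, 65.6 and 162 TPM and rose by 1.30. DCN, decorin, had 1201, 669 and 824 TPM, and LUM, lumican, had 503, 511 and 586 TPM. DCN had a log2 ratio of −0.84 in stage I and 0.30 in stage II, both past the FDR and under 2-fold, whereas LUM had 0.02 (interval −0.05 to 0.10) in stage I. Tags of LUM per DCN tag went from 0.419 to 0.7645 and 0.712, so that the change of this ratio lay in stage I (log2 change 0.87, interval 0.77 to 0.96) and stage II added −0.10 (interval −0.20 to −0.01). DCN tags per BGN tag were 7.31, 9.77 and 5.94, with a log2 change of −0.72 (interval −0.90 to −0.53) in stage II. At +3 d DCN had a log2 ratio of −0.54 to its −35 d level, and of −0.05 after TMM scaling.

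The matricellular and adhesive proteins act between the fibres and the cells, and 4 of 7 rose in stage II with clean-tag totals (background 3.12%) and 6 after TMM scaling (background 5.87%). SPARC, a collagen-binding glycoprotein of remodelling tissue, had 10598, 10787 and 24615 tags, or 1792, 1929 and 4211 TPM. It rose by 1.13 in stage II (interval 1.09 to 1.16) after a stage I log2 ratio of 0.11. MGP, matrix Gla protein, an inhibitor of calcification, had 5450, 1622 and 8238 tags, or 922, 290.0 and 1409 TPM. It fell by 1.67 in stage I (interval −1.75 to −1.59) and rose by 2.28 in stage II (interval 2.20 to 2.36). MGP tags per SPARC tag were 0.514, 0.15 and 0.335, with a log2 change of −1.77 (interval −1.86 to −1.69) in stage I and 1.15 (interval 1.07 to 1.24) in stage II.

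SPARC also gained on type I collagen in both stages, with 0.755, 0.931 and 1.29 SPARC tags per COL1A1 tag (log2 changes 0.30, interval 0.25 to 0.35, and 0.47, interval 0.43 to 0.52). FN1, fibronectin, which links integrins to collagen, had 345, 289 and 478 TPM and was called in stage II only after TMM scaling. POSTN, periostin, had 57.7, 36.5 and 70.3 TPM and likewise. SPARCL1, the relative of SPARC, had 68.5, 73 and 81.1 TPM and was not called in any comparison. TNXB, tenascin-X, which acts in collagen fibril spacing, had 109, 17 and 112 tags and moved most of the group in stage I: it fell by 2.60 (interval −3.43 to −1.86) and rose by 2.66 (interval 1.91 to 3.49). TNC, tenascin-C, had 53, 21 and 56 tags and rose by 1.35 in stage II, with a stage I log2 ratio of −1.26 that did not pass the FDR.

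**Figure D2:**
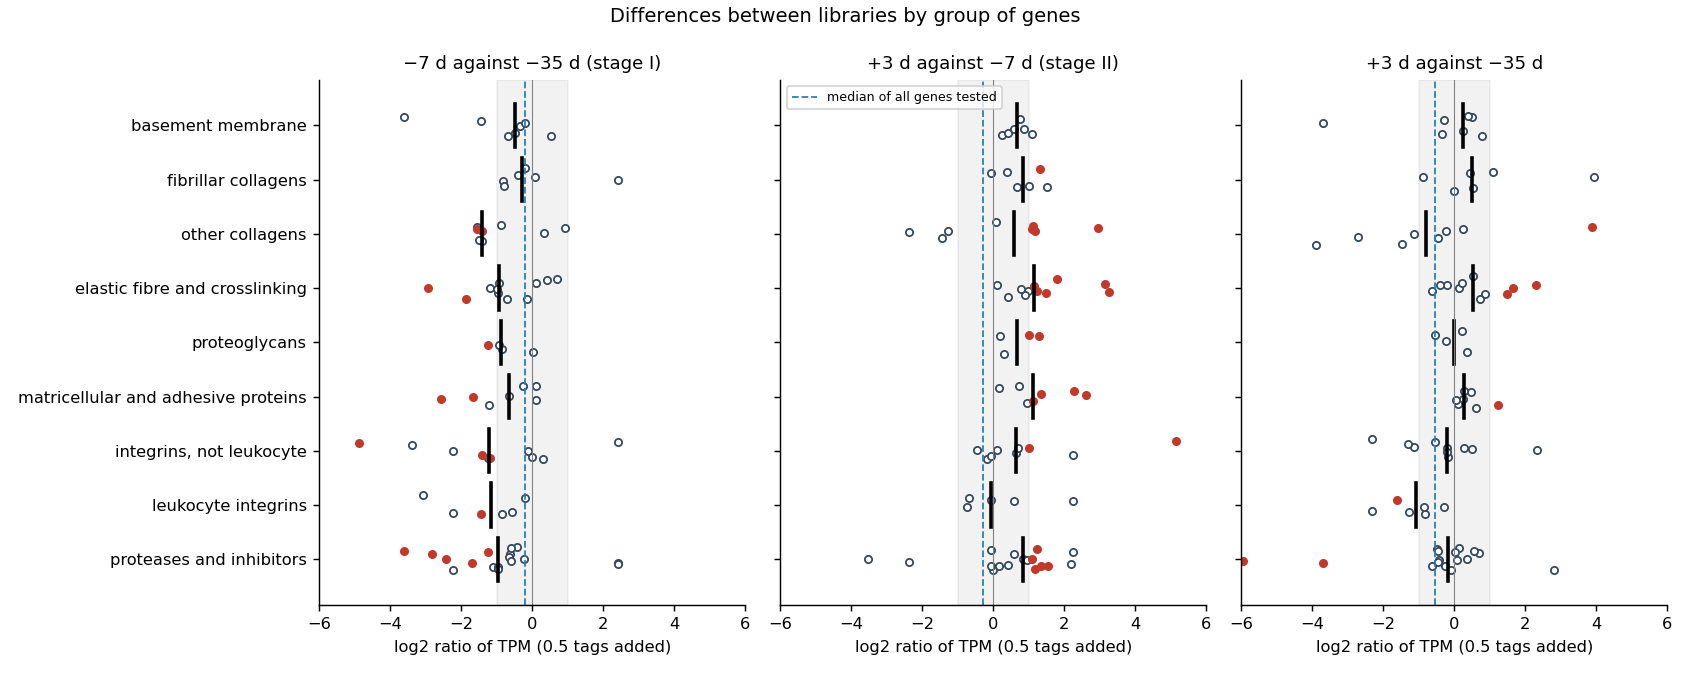
Log2 ratio of TPM of the 76 matrix, integrin and protease members, by group, for −7 d against −35 d, +3 d against −7 d and +3 d against −35 d, with 0.5 tags added to each count so that genes with 0 tags can be drawn. Red points were called with clean-tag totals and with TMM scaling, black bars are group medians, the grey band is less than 2-fold and the dashed line is the median of all genes tested (−0.21, −0.30 and −0.54). Red points lie left of the band in stage I and right of it in stage II.

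Of the integrins outside the leukocyte group, 3 of 10 fell in stage I (background 6.45%) and 2 rose in stage II (background 3.12%). ITGB1, the beta chain shared by most matrix-binding integrins, including the laminin receptors of mammary epithelium, had 232, 82 and 93 tags, or 39.2, 14.7 and 15.9 TPM. It fell by 1.42 in stage I (interval −1.80 to −1.05) and did not rise in stage II, with a stage II log2 ratio of 0.12 (interval −0.33 to 0.56). ITGB5, a beta chain that pairs with the alpha-v chain and binds vitronectin, had 95.4, 41.5 and 83.1 TPM. It fell by 1.20 and rose by 1.003, the latter just past the 2-fold threshold. There were 2.43, 2.83 and 5.23 ITGB5 tags per ITGB1 tag, and this ratio changed in stage II (log2 change 0.88, interval 0.40 to 1.37) and not beyond counting error in stage I (0.22, interval −0.21 to 0.64). ITGB6, the epithelial partner of alpha-v that activates TGF-beta, had 15, 0 and 18 tags. It fell at least 4.73-fold and rose at least 5.74-fold against the limit of 3 tags, with 15 and 18 taken as counted. The 95% interval of the log2 ratio ends at −1.76 in stage I and begins at 2.07 in stage II, and tags seen once had been removed from the libraries.

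The alpha chains of integrins outside the leukocyte group were not called with clean-tag totals in any comparison. ITGA6, the alpha chain of the laminin receptors of hemidesmosomes and of basal cells, had 49, 48.8 and 42.9 TPM. Its stage I log2 ratio was −0.01 (interval −0.25 to 0.24), and 0.18 after TMM scaling. ITGA5, the alpha chain of the fibronectin receptor, had 24.5, 22.35 and 35.1 TPM and was called higher at +3 d than at −35 d after TMM scaling, at 1.01. ITGAV had 21, 8 and 14 tags and ITGA2B, the platelet chain, 32, 37 and 28. ITGA2, ITGA3 and ITGA7 had at most 5 tags in any library, and no direction can be given for them. With genes at 3 tags or fewer set to 3, the median of the 10 integrins in stage I moved from −1.23 to −0.40, so it rests on genes with few tags.

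Of the 6 leukocyte integrins 1 fell in stage I (background 6.45%), and 4 of the 6 had at most 13 tags. Their summed level was highest at −35 d. ITGB2, a beta chain of leukocyte integrins, had 238, 83 and 130 tags, or 40.2, 14.8 and 22.2 TPM, and fell by 1.44 in stage I (interval −1.82 to −1.07). ITGB7, a beta chain of lymphocytes that home to mucosa, had 286, 148 and 93 tags. It was called lower at +3 d than at −35 d, by 1.60 (interval −1.96 to −1.26) and by 1.11 after TMM scaling. ITGA4, a partner of ITGB7, had 13, 8 and 5 tags, and ITGAD, ITGAL and ITGAM had at most 5. The summed level of the 6 was 92.65, 43.45 and 40 TPM. The markers of macrophages summed to 727, 295 and 382 TPM (10 entries listed, with 1 of the 2 MSR1 entries at 0 at −7 d), and those of lymphocytes to 161, 106 and 110 TPM (8 genes, none at 0). Of the 10 macrophage entries 5 fell in stage I (background 6.45%) and 3 rose in stage II (background 3.12%), and they did not run alike. CD68 had 35, 5 and 12 tags, CD163 had 46, 11 and 116, and CD14 had 17, 24 and 115, the latter pair called higher at +3 d than at either earlier time. Among lymphocyte markers CD3G had 237, 78 and 100 tags and CD8A 105, 53 and 117. CD3E, with 287, 248 and 213 tags, and CD2, with 180, 144 and 118, were lowest at +3 d by clean-tag totals. By clean-tag totals all 8 lymphocyte markers were lower in stage I, and in stage II 5 were higher and 3 lower. Their median log2 ratios were −0.925 and 0.345, against −0.21 and −0.30 for all genes. After TMM scaling CD3E turned to 0.060 in stage I and 0.025 in stage II. MRC1, TYROBP, PTPRC and CD79B were not listed. The part of leukocyte number in the integrin values was not tested, and in pooled tissue fewer cells of a type and less RNA per cell cannot be told apart.

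**Figure D3:**
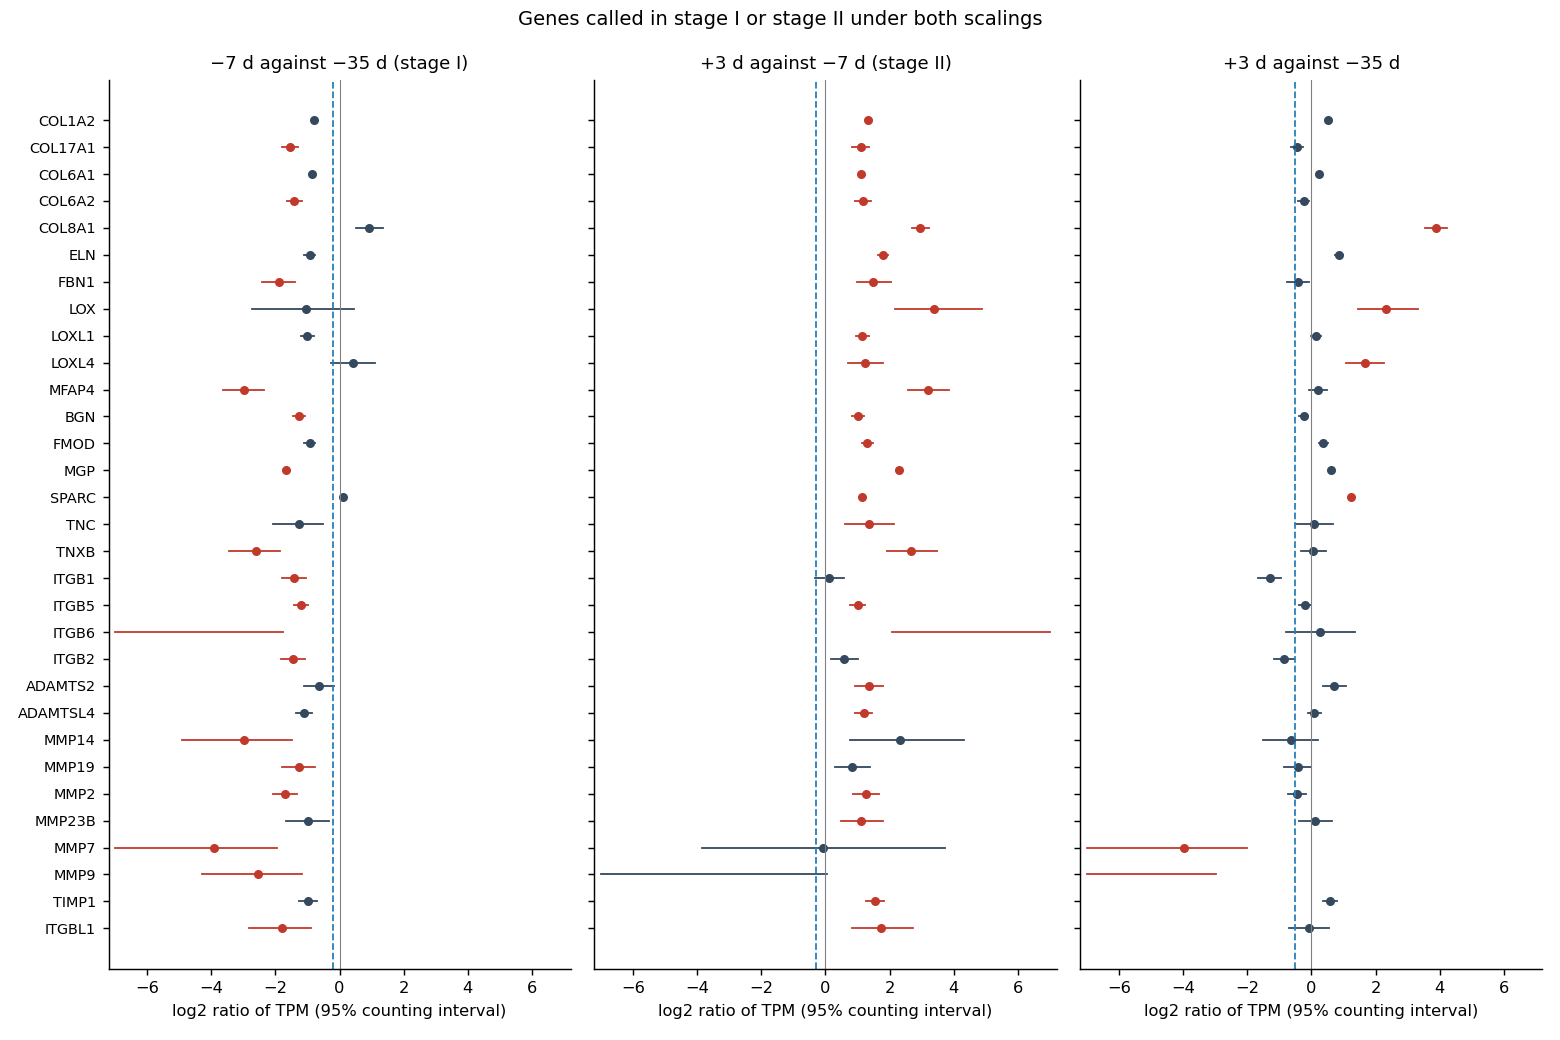
Log2 ratio of TPM with its 95% counting interval for the 31 genes called in stage I or stage II with both scalings, in 3 panels for −7 d against −35 d, +3 d against −7 d and +3 d against −35 d. Red marks a call under both scalings in that panel, bars without a point have a library at 0 tags, bars end at the edge of the axis where they go beyond it, and the dashed line shows where no difference would lie after TMM scaling. MFAP4 and TNXB swing from left in the first panel to right in the second, COL8A1, LOXL4 and SPARC have their points right of 0 in each panel, and MMP7 and MMP9 lie left of 0 in the first and last panels.

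Among the proteases, MMP2, MMP14, MMP19, MMP7 and MMP9 fell in stage I. MMP2, gelatinase A, which degrades type IV collagen and is made mainly by stromal cells, had 261, 76 and 189 tags, or 44.1, 13.6 and 32.3 TPM. It fell by 1.70 (interval −2.09 to −1.33) and rose by 1.25 (interval 0.86 to 1.65). MMP14, the membrane-bound enzyme that activates pro-MMP2, had 33, 4 and 21 tags. It fell by 2.96 (interval −4.92 to −1.47), and its stage II log2 ratio of 2.33 (interval 0.76 to 4.33) was called only after TMM scaling. MMP19 had 114, 45 and 84 tags, fell by 1.26, and in stage II had 0.84, called after TMM scaling only. MMP14 and MMP2, activator and target, both had their fewest tags at −7 d.

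MMP7 and MMP9 fell in stage I and were not called in stage II. MMP7, matrilysin, an enzyme of glandular epithelium, had 32, 2 and 2 tags. It fell by 3.92 in stage I with a wide interval of −7.03 to −1.95. MMP9, gelatinase B, known from neutrophils and macrophages, had 31, 5 and 0 tags. It fell by 2.55 in stage I (interval −4.27 to −1.18) and was at least 10.2-fold lower at +3 d than at −35 d against the limit of 3 tags, with an interval of the log2 ratio that ends at −2.97. MMP7 and MMP9 were called lower at +3 d than at −35 d under clean-tag totals, under TMM scaling and with the assumed coefficient of variation of 0.2. MMP9 and 9 of 10 macrophage entries were lower at −7 d than at −35 d, whereas 9 of 10 macrophage entries were higher at +3 d than at −7 d (median log2 ratio 0.97), and the part of leukocytes in the MMP9 values was not tested. MMP23B, a membrane-bound MMP, had 63, 30 and 68 tags and rose by 1.12 in stage II, a call that Fisher's exact test did not make. MMP27 had at most 2 tags.

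ADAMTS2, the enzyme that removes the N-terminal propeptide of fibrillar procollagens, had 17.4, 11.3 and 28.6 TPM and rose by 1.34 in stage II (interval 0.92 to 1.79). The proteoglycan-cutting members were not called: ADAMTS1 had 20.3, 17.2 and 17.1 TPM, ADAMTS4 had 33, 23 and 23 tags, and ADAMTS5 at most 3. ADAMTSL4, which resembles ADAMTS enzymes, lacks the protease part and binds fibrillin microfibrils, had 68.65, 32 and 73 TPM. It fell by 1.10 in stage I, a call lost after TMM scaling, and rose by 1.19 in stage II. ADAMTSL3 had 2 tags at −7 d only.

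Of the inhibitors only TIMP1 was called. TIMP1, a broad and inducible inhibitor, had 52.75, 26.8 and 78.35 TPM and rose by 1.55 in stage II (interval 1.28 to 1.82). TIMP2, which also takes part in the activation of MMP2, had 239, 150.5 and 226 TPM, and TIMP3, which binds to the matrix, had 71.35, 46.7 and 52 TPM. TIMP2 and TIMP3 passed the FDR in stage I, at −0.67 and −0.61, but not the 2-fold threshold. TIMP1 tags per TIMP3 tag were 0.739, 0.575 and 1.51, a 2.62-fold increase in stage II (log2 change 1.39, interval 1.03 to 1.75). TIMP2 tags per MMP2 tag were 5.41, 11.1 and 7, a 2.05-fold increase in stage I (log2 change 1.03, interval 0.65 to 1.42) and a decrease by 0.66 (interval −1.07 to −0.26) in stage II. TIMP2 was thus higher relative to MMP2 at −7 d than at the other times. TIMP4 had 29, 18 and 37 tags and no call.

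**Figure D4:**
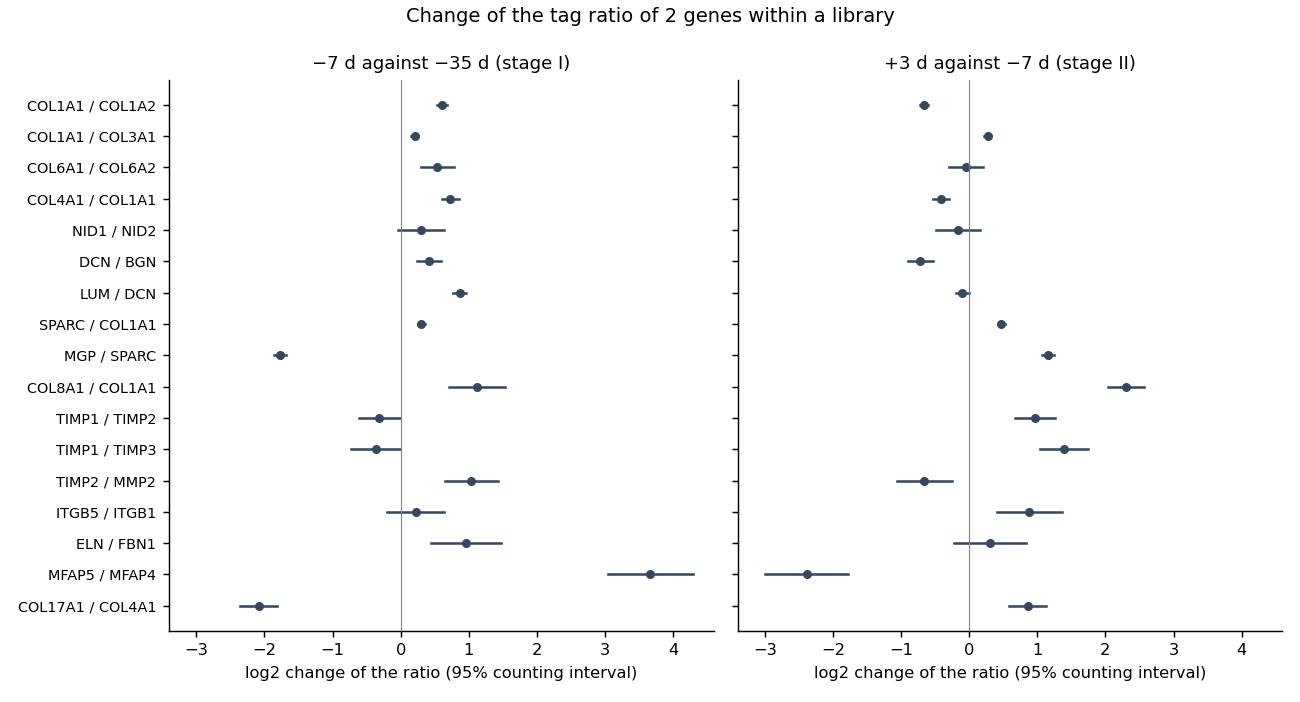
Change of the ratio of tags of 2 members within a library, as log2 with its 95% counting interval, for −7 d against −35 d (left) and +3 d against −7 d (right), for 17 pairs chosen after the values had been seen. These changes do not depend on the scaling. MFAP5 per MFAP4 increased by 3.66 and decreased by 2.39, COL17A1 per COL4A1 decreased by 2.09 and increased by 0.86, and SPARC per COL1A1 increased in both panels.

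Of the genes set apart as name matches, 5 of 6 were not called. ITGBL1, a secreted protein related to integrin beta chains, had 48, 13 and 45 tags, fell by 1.80 in stage I (interval −2.81 to −0.90) and rose by 1.73 in stage II (interval 0.81 to 2.74). COL4A3BP, a ceramide transporter, had 12, 9 and 11 tags. ITGB1BP1, which binds the tail of the beta1 integrin, had 17.6, 15.9 and 16.4 TPM. MFAP1, a splicing protein, had 16.2, 11.8 and 9.58 TPM, and MFAP3 had 20.6, 17 and 21 TPM. ITGB3BP, a centromere protein, had 33, 39 and 39 tags. The median log2 ratio of these 6 was −0.30 in stage I and 0.13 in stage II, and −0.11 and 0.44 after TMM scaling.

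Set against the dry gland, 10 members differed in early lactation. At +3 d against −35 d, 5 of 81 were called higher (background 2.33%): COL8A1, LOX, LOXL4, MFAP5 and SPARC. The 5 called lower (background 16.3%) were COL13A1, ITGB1, ITGB7, MMP7 and MMP9. The share of members called lower, 6.17%, was below the background. After TMM scaling 15 were higher (background 6.23%), with ADAMTS2, COL18A1, COL1A2, COL4A1, ELN, ITGA5, LOXL2, MFAP2, MGP and TIMP1 added, and 3 were lower (background 4.94%), without COL13A1 and ITGB1. With the assumed coefficient of variation of 0.2, COL8A1 was higher (background 0.601%) and MMP7 and MMP9 were lower (background 1.13%). LOX rose by 2.34 (interval 1.47 to 3.32), LOXL4 by 1.66 (interval 1.09 to 2.26), MFAP5 by 1.49 (interval 1.33 to 1.65) and SPARC by 1.23 (interval 1.20 to 1.27). ITGB1 fell by 1.30 (interval −1.66 to −0.95), or −0.80 after TMM scaling. The log2 ratios of COL3A1, COL17A1, COL6A2, BGN, FBN1, FBLN1, MMP2, MMP19, TIMP2, TIMP3, ITGA6, ITGB5 and ITGBL1 in this comparison are negative with clean-tag totals and positive after TMM scaling, so that no direction is given for them.

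Matrix genes outside the symbol rule were counted from a list of 62, of which 48 were in the tables. In stage I 9 fell and none rose (5 and 0 after TMM scaling), against 6.45% of all genes called lower and 2.62% higher (3.9% and 4.22% after TMM scaling). In stage II 7 rose and 2 fell (13 and 0 after TMM scaling), against 3.12% and 10.4% of all genes (5.87% and 4.9%). At +3 d against −35 d 4 were higher and 7 lower (12 and 2 after TMM scaling), against 2.33% and 16.3% of all genes (6.23% and 4.94%), so that the share lower was below the background. Of the 12 collagen-processing genes listed, PCOLCE, the enhancer of procollagen C-proteinase, had 816, 299 and 762 tags, fell by 1.37 and rose by 1.29. PCOLCE2 rose in stage II by 1.74, and P4HB, a subunit of prolyl hydroxylase that also folds other secreted proteins, fell by 1.19 in stage II, a call lost after TMM scaling. SERPINH1, the collagen chaperone, had 1870, 1663 and 1687 tags and no call. Of the 16 other matrix proteins, EFEMP1, EFEMP2, LTBP2, ECM1 and CYR61 rose in stage II, EFEMP2, an elastic fibre fibulin, by 1.52 and ECM1 by 2.52. SPP1, osteopontin, fell by 4.08 in stage I. Of the 7 other receptors, only DAG1, dystroglycan, was called, lower by 1.19 in stage II with clean-tag totals, and after TMM scaling SDC2, a syndecan, was called higher in stage II in its place. Of the 13 other proteases and inhibitors, PLAT, CTSB, CTSK and ADAM12 fell in stage I, CTSB not after TMM scaling, and none was called in stage II with clean-tag totals. PLAU was called higher in stage II after TMM scaling. These genes were named after their values were seen.

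The markers of other cell types moved in part with the matrix genes. Fibroblast markers, 6 of 8 listed and none at 0, summed to 1441, 753 and 1464 TPM, with FAP at 23, 13 and 78 tags, and PI16 at 575, 329 and 1782. VIM had 5151, 1834 and 3086 tags, or 871, 328 and 528 TPM of the sum. At +3 d against −35 d 4 of the 6 were higher and 2, VIM and CD34, lower by clean-tag totals. After TMM scaling the log2 ratios of these 2 were −0.224 and 0.205. PDGFRA and PDGFRB were not listed. Markers of smooth muscle and myoepithelium, 9 of 10 listed and none at 0, summed to 956, 598 and 1378 TPM, with ACTG2 at 132, 332 and 1372 tags and KRT5 at 945, 230 and 363. Endothelial markers (9 of 10, none at 0) summed to 237, 237 and 328 TPM, of which ENG had 96.5, 129 and 170. With clean-tag totals and after TMM scaling, their median log2 ratio was −0.50 and −0.31 in stage I, with 7 of 9 lower by clean-tag totals, and 0.60 and 0.91 in stage II, with 8 of 9 higher. Sums were, for luminal epithelial markers (8 of 10, none at 0), 1569, 1121 and 935 TPM, and for adipocyte markers (5 of 6, none at 0), 208, 137 and 281 TPM. In stage II 5 of the 8 luminal markers were higher and 3 lower by clean-tag totals. The luminal median log2 ratio in stage II was 0.27, or 0.58 after TMM scaling. EPCAM had 498, 293 and 210 TPM and ELF5 had 271, 353 and 155 TPM of the luminal sum, while MUC1 rose by 2.16 in stage II. Of the adipocyte sum FABP4 alone held 153, 91.4 and 244 TPM. In stage II 3 of 5 adipocyte markers were lower and 2 higher by clean-tag totals. Their median log2 ratio was −0.46, or −0.16 after TMM scaling. VWF, TP63, KRT18, KRT19 and LIPE were not listed. Fibroblast markers and fibrillar collagens (5916, 4550 and 7270 TPM), elastic fibre genes (804, 499 and 1054 TPM), other collagens (762.5, 396 and 988 TPM) and proteases and inhibitors (570.3, 321.5 and 549 TPM) were all lowest at −7 d, with and without TMM scaling. The marker sums of smooth muscle and myoepithelium, macrophages, lymphocytes and adipocytes were also lowest at −7 d, with and without TMM scaling. Basement membrane genes summed to 504, 494.5 and 725.5 TPM, and after TMM scaling to 430.1, 481 and 874 TPM. The part of cell composition in these values was not tested.

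**Figure D5:**
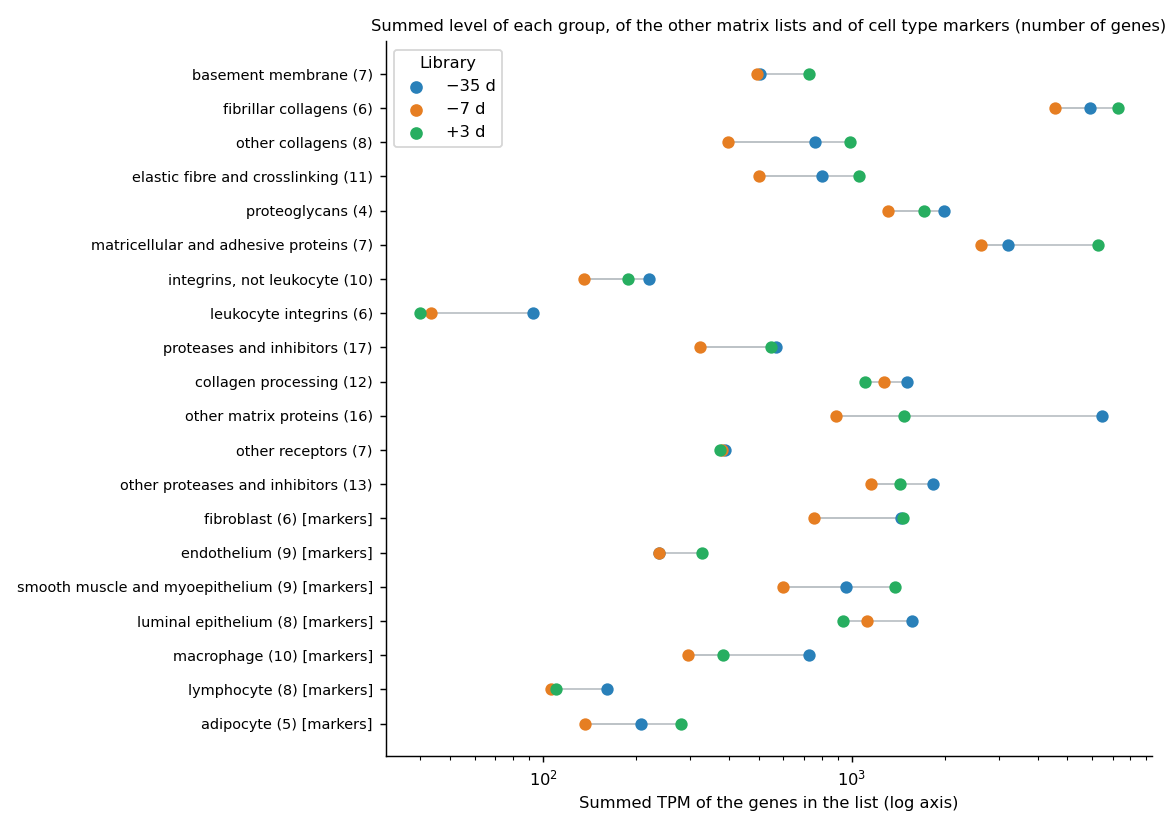
Summed TPM, on a log axis, of each group of members, of the other matrix lists and of the cell type marker lists in the libraries of −35 d (blue), −7 d (orange) and +3 d (green), with the number of genes in brackets. The −7 d point is the lowest for 8 of the 9 groups of members, and for leukocyte integrins the +3 d point is. Markers of fibroblasts, smooth muscle and myoepithelium, macrophages, lymphocytes and adipocytes have their lowest point at −7 d, luminal epithelial markers at +3 d. Endothelial markers have nearly the same sum at −35 d and −7 d. After TMM scaling the lowest point of leukocyte integrins and of luminal markers is at −7 d, and that of basement membrane genes and of endothelial markers at −35 d.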

How the data were processed

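The authors filtered raw tags for adaptors, unknown bases, wrong length and single copies, and matched the clean tags (CATG and the next 17 bases, 21 bases in all) to bovine transcripts of UMD 3.1 with at most 1 mismatch. They left out tags of several genes and deposited the tag counts per gene. The TPM values deposited by the authors are these counts scaled to the clean tags of the library, without other scaling, and differ from the recomputed ones by at most 0.0050 TPM. The counts of distinct clean tags deposited by the authors gave the library totals. Fold changes and p-values of the authors were not used, nor were their tag summaries.

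Gene tables were joined by accession, and a gene not listed in a library was given 0 tags. Members were found by symbol in the authors' descriptions, and 82 symbols and 70 accessions were found in the ARS-UCD2.0 annotation, from which only names were taken. Coordinates and sequences are not given here, and tags were not matched to members. Of the members, 8 are predicted gene models. The members, groups, lists and tests were chosen with earlier results of these data known. The Audic-Claverie test was 2-sided, adjusted by the Benjamini-Hochberg method over all genes with a tag in either library, with 0 TPM set to 0.01 TPM. Intervals of 95% for log2 ratios came from exact binomial intervals, and those of ratios of 2 genes from a normal approximation of the log counts. Group medians used 0.5 tags added to each count. A gene with a library at 0 was set against 3 tags.

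Alternatives were TMM scaling, DESeq2 size factors, totals without genes over 1% of a library, Fisher's exact test, a coefficient of variation assumed as 0.2 or 0.4 (exact test of edgeR), a minimum mean of 5 TPM and a 3-fold threshold. For group medians 1 tag or no tag was added. Named genes were every member called in stage I or stage II under clean-tag totals and under TMM scaling, and the 3 members with the most tags in each group (47 genes). Others are named as counts of a group, as outside the rule or as chosen after their values were seen. The lists of other matrix genes (collagen processing, other matrix proteins, other receptors, other proteases and inhibitors) and of cell type markers came from general knowledge, and not every gene of these lists is reported here by name. The test was checked on simulated counts. R 4.3.3 ran DESeq2 1.42.0 and edgeR 4.0.16, and Python 3.11.15 ran pandas 2.3.3, scipy 1.17.1, matplotlib 3.10.9 and numpy 2.4.6.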

Additional observations from a re-analysis of the deposited data

How the results depend on the processing

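No paired analysis was possible because each time has 1 pooled library. For the same reason no library could be left out. Counts of members called lower in stage I changed most with the assumed spread: 2 with a coefficient of variation of 0.2, 0 with 0.4, and 10 at 3-fold. TMM scaling and DESeq2 size factors gave 1 member higher in stage I. In stage II 5 were higher with 0.2, 0 with 0.4 and 8 at 3-fold. At +3 d against −35 d the members higher numbered 15 with TMM scaling, 15 with DESeq2 size factors, 9 without genes over 1%, 1 with 0.2, 0 with 0.4 and 3 at 3-fold. Those lower numbered 3 with TMM scaling, 3 with DESeq2 size factors, 2 with 0.2, 0 with 0.4 and 2 at a minimum of 5 TPM. The other 29 counts stayed within 1.5 times, and the 54 group medians with another or no added tag kept their direction and stayed between the medians of the members' lower and upper interval bounds.

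For single genes, 653 values kept direction and side of the threshold, 109 lost the call, 39 gained it and 45 turned direction, all 45 through scaling. These are, at +3 d against −35 d with TMM, DESeq2 and totals without genes over 1%, ITGA6 0.307, 0.325 and 0.174, ITGB5 0.300, 0.318 and 0.167, ITGBL1 0.423, 0.441 and 0.289, COL3A1 0.483, 0.501 and 0.350, COL6A2 0.256, 0.274 and 0.123, FBLN1 0.306, 0.324 and 0.173, TIMP2 0.420, 0.438 and 0.287, and BGN 0.255, 0.273 and 0.122. With TMM and DESeq2 alone they are COL17A1 0.044 and 0.062, MMP19 0.076 and 0.094, FBN1 0.092 and 0.110, MMP2 0.050 and 0.068, and TIMP3 0.042 and 0.060. In stage I ITGA5 turned to 0.057 and 0.060, and ITGA6 to 0.184, 0.186 and 0.049. In stage II MMP7 turned to 0.244, 0.259 and 0.245, and ITGA6 to 0.123, 0.138 and 0.124. Depth limits the 14 members with at most 10 tags in every library, for which no absence of a difference can be read.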
